A study of Mus musculus with 32 samples.

Results

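The cytosolic ribosomal protein genes encode the proteins of the large and the small subunit of the ribosome, the machine that translates mRNA in the cytosol. They were taken by symbol from 4 tables of gene levels: every symbol made of Rpl or Rps and a number, with or without a final a or x, together with Rplp0, Rplp1, Rplp2 and Rpsa. The rule found 76 genes, 46 of the large and 30 of the small subunit, among 33654 gene rows per table, and it used no measured value. All 76 passed the filter on low values in each table.

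RNA sequencing had been done on mouse MMTV-PyMT breast cancer cells, in which the mouse mammary tumor virus promoter drives the polyoma middle T oncogene, and on CD8 T cells, both isolated from tumors. In the time course, tumor cells were taken at an early stage, week 2 (n = 3), a middle stage, week 3 (n = 4), and a late stage, week 4 (n = 4), and CD8 T cells at the same weeks (n = 3 each). For the knockdown set, both cell types came from tumors grown from cells carrying a control hairpin RNA, labelled WT and shCTRL (n = 3 each), or a hairpin against Mogat1, a monoacylglycerol acyltransferase, labelled Mogat1 knockdown and shMogat1 (n = 3 each). The label of a CD8 T cell library in that set thus names the hairpin of the tumor cells it was isolated with. Strain, age and host of the mice are not in the labels. No label says that replicates came from separate mice, so the spread between them may be technical.

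Ribosomal protein mRNAs belong to the most abundant mRNAs of a dividing cell, because each ribosome needs 1 copy of most of its proteins. In vertebrates they begin with a 5′ terminal oligopyrimidine tract (TOP), a run of C and T right at the transcription start. The kinase complex mTORC1 raises and its loss lowers translation of such mRNAs, with the protein Larp1 binding the tract, and the transcription factor Myc promotes transcription of ribosome genes. Several members have roles beyond bulk translation in the textbooks: Rpl5 and Rpl11 bind the p53 regulator Mdm2, Rpl22 is needed for T cell development, and Rpl38 for translation of Hox mRNAs in the mouse embryo.

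Some libraries stood apart or went against their labels. Mogat1 was listed at 0 TPM (a transcript level scaled for gene length and library total) in all 3 tumor shCTRL libraries and at 0.146 to 0.624 in those labelled shMogat1, so the labels are used here only as names. In the same tumor libraries the epithelial markers Epcam and Krt8 were nearly absent under shCTRL, at 0.693 ± 0.155 and 1.45 ± 0.127 TPM (SD, n = 3), against 29.6 ± 1.17 and 39.7 ± 2.83 under shMogat1, while tumor cells of the time course held 249 TPM of Epcam or more. The summed level of all 12 epithelial markers was 204 to 218 TPM in shCTRL and 966 to 1011 in shMogat1 tumor libraries. CD8 T cell libraries had 4410 to 6108 TPM of T cell identity genes (the T cell receptor complex, Cd8a, Cd8b1 and others). Tumor week 2 replicate 1 held the most T cell identity RNA of the tumor libraries, 253 TPM, the most leukocyte marker RNA, 1831 TPM, and the lowest share of mitochondrially encoded RNA of its table, 6.37%. It also held the smallest share of ribosomal protein RNA, 11.1%. In bulk RNA, fewer cells of a type and less RNA per cell cannot be told apart.

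The sequences around the start of 8 members are printed as examples of the family's promoters. They run from 60 bases before to 25 after the start that RefSeq gives on GRCm38.p6, on the strand of the gene, and the longest run of C and T near the start is in capitals. Rps6, Rplp2, Rps27, Rps12, Rpl13, Rpl37, Rps18 and Rpl38 were picked because the results below turn on most of them. All 8 hold a run of at least 6 bases, while other members, such as Rpl41, Rpsa and Rps28, hold none near their listed start.
Rps6, chr4:86857343-86857427, minus strand: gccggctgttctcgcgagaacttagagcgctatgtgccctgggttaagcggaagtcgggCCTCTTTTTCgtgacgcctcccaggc
Rpl38, chr11:114668520-114668604, plus strand: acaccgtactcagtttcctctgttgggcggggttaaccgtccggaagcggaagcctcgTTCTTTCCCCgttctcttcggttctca
Rplp2, chr7:141447591-141447675, plus strand: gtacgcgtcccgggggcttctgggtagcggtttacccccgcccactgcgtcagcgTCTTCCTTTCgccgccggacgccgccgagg
Rps27, chr3:90213624-90213708, minus strand: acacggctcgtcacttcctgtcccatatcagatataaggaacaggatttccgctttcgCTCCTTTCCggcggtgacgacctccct
Rps18, chr17:33955641-33955725, minus strand: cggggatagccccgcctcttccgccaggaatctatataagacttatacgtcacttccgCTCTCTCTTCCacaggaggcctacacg
Rps12, chr10:23787185-23787269, minus strand: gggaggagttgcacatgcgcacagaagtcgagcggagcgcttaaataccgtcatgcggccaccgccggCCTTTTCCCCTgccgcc
Rpl13, chr8:123102290-123102374, plus strand: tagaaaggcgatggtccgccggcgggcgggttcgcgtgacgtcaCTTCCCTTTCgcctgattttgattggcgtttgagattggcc
Rpl37, chr15:5116553-5116637, plus strand: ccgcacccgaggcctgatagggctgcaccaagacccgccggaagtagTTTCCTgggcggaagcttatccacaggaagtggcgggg
In the first 5 of these the run lies across or beside the listed start. In Rps12 it lies after the listed start, and in Rpl13 and Rpl37 before it, so the listed start may not be the base from which most mRNA begins.

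The promoter table held 56 of the 76 members. A gene was counted if any of its listed starts matched, and some members, such as Rpl35a and Rps19, have several. A run of at least 8 pyrimidines on the gene's strand within 20 bases of the start was found in 28 of the 56 (50%), against 18.4% of all 27025 genes, with windows of the same length. The letters CTTTC in the same stretch were found in 18 members (32.1%), against 6.4% of all genes, and CTTCC in 15 (26.8%), against 10.3%. CCGGAAG, the letters that ETS factors such as GABP bind, were found on either strand of the 300-base window in 23 members (41.1%), against 9.9% of all. The TATA letters TATAAA were in 10.7% of members and 15.7% of all genes, the E-box CACGTG, which Myc can bind, in 10.7% and 8.1%, and AAGATGG, which Yy1 can bind, in 16.1% and 7.3%. These matches are letters in a window, with no measurement of binding.

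Together the 76 genes made up 11.1% to 16.9% of all TPM in the tumor time course and 20.4% to 26.2% in CD8 T cells of the same weeks. In the knockdown set the shares were 11.6% to 12.6% in tumor cells and 21.9% to 23.4% in CD8 T cells. The tables were scaled separately, so these cell type differences are descriptions. Most members sat close together: 58 of 76 in the tumor time course and 57 of 76 in its CD8 T cells had a mean TPM within 1 log2 unit of the median member.

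**Figure D1:**
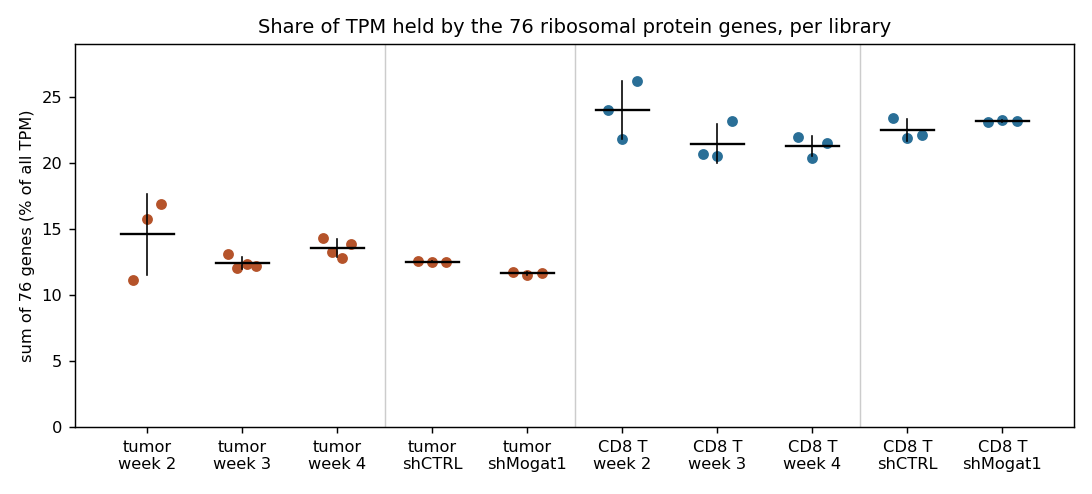
Summed TPM of the 76 ribosomal protein genes as a percent of all TPM, 1 point per library, by group; bars are group means and lines ± 1 SD. Week 2 tumor libraries span 11.1% to 16.9%, the widest of any group, and all CD8 T cell libraries lie above all tumor libraries.

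At the top of the tumor tables stood Rpl41, the smallest ribosomal protein, at a mean of 4746 TPM (4018 to 6919 over 11 libraries) in the time course and 3866 TPM (3793 to 3950 over 6) in the knockdown set. In CD8 T cells the highest member was Rpl12, a protein at the base of the stalk, at 6959 TPM (5792 to 8281 over 9 libraries) and 6742 TPM (6306 to 7261 over 6). Rpl41 ranked 7th and 16th there. Next in order came Rpl13 (3771 TPM) and Rps14 (3619) in tumor cells over time, Rplp1 (6951) and Rps4x (5870) in CD8 T cells over time, Rps26 (3454) and Rpl23a (3309) in knockdown tumor cells, and Rpl23a (5943) and Rps4x (5746) in knockdown CD8 T cells. Neighbours in each of these orders overlapped in their library ranges, except that Rpl41 lay above Rps26 in all 6 knockdown tumor libraries.

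The same 3 members were lowest in all 4 tables: Rpl21, Rpl34 and Rpl29. Rpl29, which mice can live without at the cost of slow growth, had means of only 23.0, 22.8, 16.1 and 22.5 TPM in the tumor and CD8 T cell time courses and in knockdown tumor and knockdown CD8 T cells, in this order. Its level relative to the median member was -6.87 to -6.06 log2 units over the 4 tables, the median member itself standing between 1276 and 3141 TPM. Rpl34 came next with 104, 158, 88.3 and 198 TPM, and Rpl21 with 147, 243, 151 and 343. The range of Rpl29 overlapped that of no other member, and Rpl34 and Rpl21 overlapped each other only in tumor cells over time.

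Ribosomal protein genes have many processed pseudogenes, and reads that fit several places may be split or dropped by the read counter, which is not named in the sources used here. In GENCODE M21 (GRCm38), 81 pseudogenes shared sequence with Rpl29, 81 with Rpl21, 9 with Rpl34 and 120 with Rpl7a. The share of 100-base windows of a transcript found again in another gene was 0% for members such as Rps3, Rps21, Rpl22 and Rpl32 and 98.4% for Rps27. Over the 76 genes the Spearman correlation of this share with the level was between -0.09 and -0.04 in the 4 tables, and that of the number of pseudogenes between -0.20 and -0.14. The part of read sharing in the low levels of Rpl29, Rpl34 and Rpl21 was not tested, and their values, like that of Rps27, are uncertain to that extent.

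The members moved together from library to library, most of all in the tumor time course. After removing group means, the median member accounted for 85.8% of the members' variance over 11 tumor time libraries (median correlation of member pairs 0.92). In CD8 T cells over time it accounted for 60% (median pair correlation 0.73, 9 libraries), and in CD8 T cells of the knockdown set for 35.7% (0.49, 6 libraries). In knockdown tumor cells it accounted for only 4.53% (0.10, 6 libraries), where members varied within groups by a residual SD of 0.037 log2 units, against 0.184 in the tumor time course. All tested genes, taken around their own median in each library, had a share of 5.50% in the tumor time course. Genes outside the rule with levels at or above the members' lower quartile were taken around their own median too. Their shares were -0.756% and 9.55% in tumor and CD8 T cells over time, and 2.74% and -3.6% in knockdown tumor and CD8 T cells. A share below 0 means that removing the median added variance. These are descriptions: pairs of genes share libraries and scaling.

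**Figure D2:**
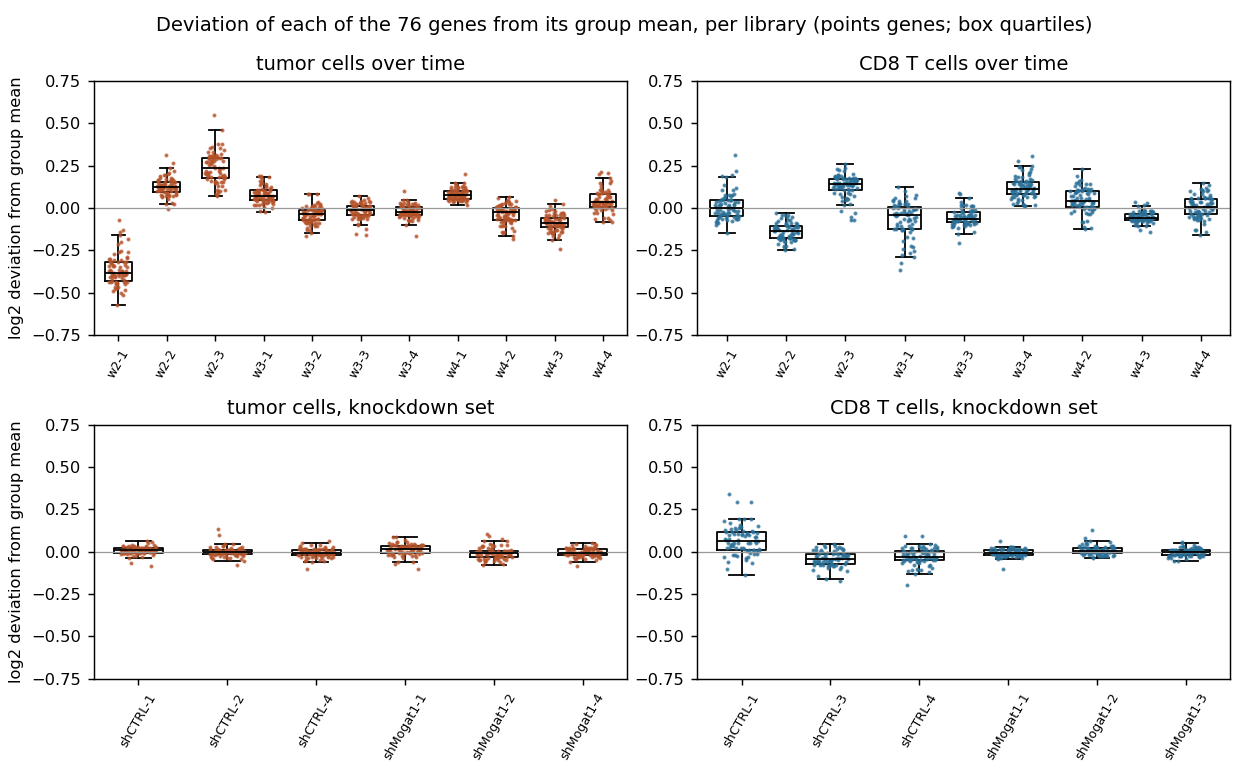
Deviation of each ribosomal protein gene from its group mean, log2(TPM + 1), in every library of the 4 tables; each point is 1 gene. In tumor week 2 replicate 1 nearly the whole family lies below its group mean, while in knockdown tumor libraries the deviations sit close to 0.

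Much of this shared movement rested on few libraries and on the scaling. Without tumor week 2 replicate 1 the median member accounted for 55.4% in tumor cells over time, and without CD8 shCTRL replicate 1 for 6.30% in CD8 T cells of the knockdown set. After quantile normalization, which forces every library to the same distribution, the share was 67.4% in tumor cells over time but 9.28% in their CD8 T cells and 12.7% in CD8 T cells of the knockdown set. Among genes outside the name rule, those whose log2 level followed the median member most closely (Pearson correlation averaged over the 4 tables, group means removed, n = 11, 9, 6 and 6 libraries, 11355 genes ranked) were Rps3a1 (0.94), itself a small subunit protein that the name rule missed, the prefoldin subunit Pfdn5 (0.89), the respiratory complex subunit Ndufb5 (0.88), the snoRNA host RNA Snhg15 (0.88) and the ATP synthase subunit Atp5h (0.86).

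Levels were compared between groups within a table with limma on log2(TPM + 1), fitted over all tested genes, with Benjamini-Hochberg adjustment over those genes. Members are said to have risen or fallen where the adjusted p was under 0.05. A second fit, in which the median member was set equal in all libraries, asked which members moved relative to the family. The 3 contrasts between weeks share libraries and are given side by side. Counts from refits with another scaling or without a library are given without the share of all genes in that refit. They are therefore not read as particular to the family.

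In tumor cells the family did not move as a block from week 2 to week 4. 9 members fell and 4 rose, or 11.8% and 5.26% of the 76, beside 17.1% and 29.2% of all 14770 tested genes, so neither share exceeded the background. Among those lower at week 4 were the stalk proteins Rplp1 and Rplp0, the small subunit proteins Rps12, Rps3, Rps23 and Rps9, and the large subunit protein Rpl13; higher were Rpl38, Rpl29, Rpl8 and Rps2. The median log2 change of the members was -0.08 and that of all tested genes 0.11. Large subunit members had a median of 0.01 with 4 falls, and small subunit members one of -0.18 with 5 falls. With median-of-ratios scaling 14 fell and none rose, and after quantile normalization 7 fell and 11 rose, with a median of 0.05.

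**Figure D3:**
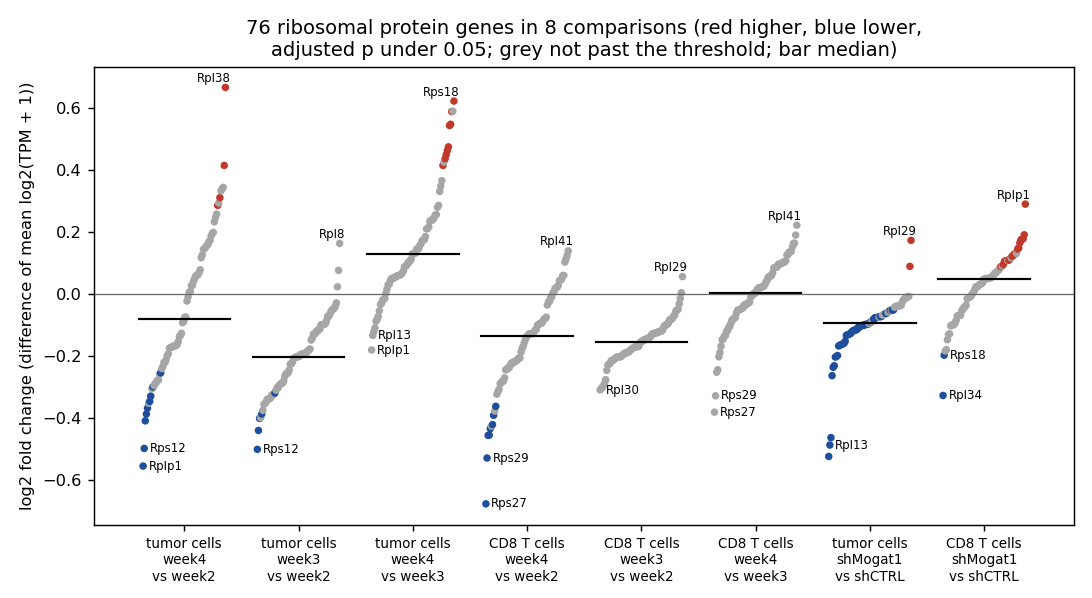
Log2 fold change, as a difference of mean log2(TPM + 1), of each of the 76 genes in the 8 comparisons; red and blue mark members that rose or fell (limma, adjusted p under 0.05), grey the rest. The 50 falls in tumor cells labelled shMogat1 are mostly small and tight, with Rpl13 and Rpl37 among the exceptions, while the week comparisons are wide with few calls.

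Rplp1, a stalk protein that helps recruit the translation factors, stood at 3019, 4424 and 4248 TPM in the 3 week 2 libraries, at 3130, 2918, 2945 and 2866 at week 3 and at 2779, 2697, 2393 and 2608 at week 4. Every week 4 library was below every library of the earlier weeks, and weeks 2 and 3 overlapped. The fall from week 2 to week 4 was 0.56 on the log2 scale (SE 0.14, limma adjusted p = 0.00656), and it was past the threshold also relative to the family (adjusted p = 0.000952). Leaving out any 1 of the 7 libraries kept the call, with log2 changes from -0.73 to -0.45.

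Rps12, a protein of the small subunit's head, stood at 1614, 2311 and 2148 TPM at week 2, at 1539, 1428, 1359 and 1339 at week 3 and at 1476, 1480, 1293 and 1425 at week 4. It was lower at both later weeks in every library, the lowest week 2 library being again replicate 1. It fell by 0.50 from week 2 to week 3 (SE 0.13, limma adjusted p = 0.0171) and by 0.50 from week 2 to week 4 (SE 0.13, adjusted p = 0.00805). Rpl13 fell by 0.39 from week 2 to week 4 (limma adjusted p = 0.0378). Leaving out any 1 of the 7 libraries other than week 2 replicate 1 ended the call of Rpl13.

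Rpl38 moved the other way. It stood at 1020, 1543 and 2222 TPM at week 2, at 1805, 1447, 1534 and 1642 at week 3 and at 2592, 2237, 2278 and 2563 at week 4. All 4 week 4 libraries were above every earlier library, and week 2 spread widest. The rise from week 2 to week 4 was 0.67 (SE 0.21, limma adjusted p = 0.0228), or 0.67 relative to the family (adjusted p = 0.000951), and without week 2 replicate 1 it was 0.38 (adjusted p = 0.0468). Leaving out week 2 replicate 2, week 4 replicate 1 or week 4 replicate 4 ended the first call (adjusted p = 0.0567, 0.0526 and 0.0525), as did median-of-ratios scaling (0.53, adjusted p = 0.103). From week 3 to week 4 the difference of 0.59 had an adjusted p of 0.0674, and relative to the family Rpl38 rose by 0.41 (adjusted p = 0.0247).

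Rpl8, which lies near the site of peptide bond formation, stood at 2226, 2331 and 2475 TPM at week 2, at 2673, 2617, 2651 and 2554 at week 3 and at 3169, 2849, 2715 and 2914 at week 4. Each week lay wholly above the one before. The rise from week 2 to week 4 was 0.31 (SE 0.09, limma adjusted p = 0.0178), and relative to the family it missed the threshold (adjusted p = 0.0566). Rpl29 rose by 0.42 (adjusted p = 0.0341) and Rps2 by 0.29 (adjusted p = 0.0474), and for each gene 5 of the 7 left-out libraries ended the call. Without week 2 replicate 1 their log2 changes were 0.24 and 0.22.

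**Figure D4:**
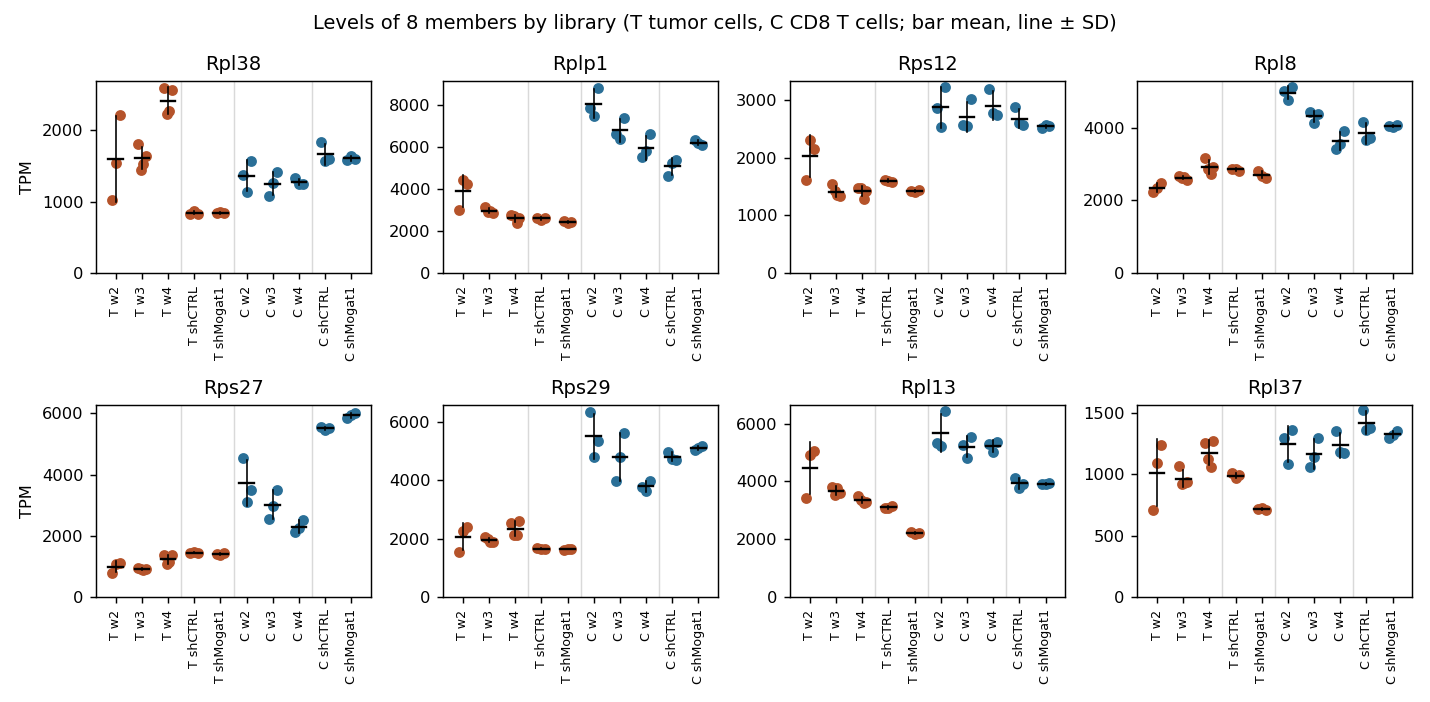
TPM per library of Rpl38, Rplp1, Rps12, Rpl8, Rps27, Rps29, Rpl13 and Rpl37 in the 10 groups, 1 point per library. Rpl38 is highest in tumor cells at week 4, Rplp1 and Rps12 are, among tumor libraries, highest in 2 of the 3 at week 2, and Rpl13 and Rpl37 are lower in tumor libraries labelled shMogat1 than in those labelled shCTRL.

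How many members were called changed when any of the week 2 libraries was left out. Without tumor week 2 replicate 1, in which the family made up 11.1% of TPM against 15.8% and 16.9% in the other two, 43 members fell from week 2 to week 4 and 62 from week 2 to week 3, and the medians were -0.28 and -0.39. Without week 2 replicate 2, 2 fell to week 4 and 0 to week 3, and without replicate 3, 2 and 1. Shares of all genes in these refits are not given here. Of the week 2 to week 4 calls relative to the family there were 16 falls and 7 rises, beside 9.72% and 16.2% of all genes. Leaving out a library left 9 to 30 such calls in all. Beside these calls, 11 of 16 leukocyte markers, 8 of 9 T cell identity genes and 7 of 9 endothelial markers fell from week 2 to week 4 and 9 of 12 epithelial markers rose. Of all genes 17.1% fell and 29.2% rose. The part of these markers in the results was not tested.

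Week 3 had the lowest family level. 73 of the 76 log2 changes from week 2 to week 3 were below 0, with a median of -0.20 against 0.14 for all genes, but only 5 members fell and none rose, beside 4.01% and 20.1% of all genes. All 5 were small subunit proteins, among them Rps12, Rps3 (-0.40, limma adjusted p = 0.0289), Rps15a (-0.39, adjusted p = 0.0486) and Rps13 (-0.32, adjusted p = 0.0471). In 5 members all week 3 libraries lay below all week 2 libraries, beside 5.64% of all genes. The medians were -0.19 for large and -0.29 for small subunit members. Relative to the family 1 member fell, beside 0.379% of all genes.

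From week 3 to week 4, 9 members rose and none fell, beside 5.53% and 8.19% of all genes, and the median change was 0.13 against -0.02. Higher were Rps18 (0.62, SE 0.16, adjusted p = 0.0271), Rpl34 (0.59, adjusted p = 0.0163), Rpl35a (0.55, adjusted p = 0.0412), Rpl29 (0.55, adjusted p = 0.0204), Rps21 (0.48, adjusted p = 0.0464), Rpl30, Rps28, Rps27 and Rps2 (limma throughout). Leaving out any 1 of the 8 libraries left 0 to 4 rises, 0 without week 4 replicate 4. In 31 members (40.8%) all week 4 libraries lay above all week 3 libraries, beside 13.5% of all genes. Rps18, a protein of the small subunit's head, was one: 537, 535, 509 and 517 TPM at week 3 against 833, 761, 724 and 931 at week 4. Its week 2 libraries, at 449, 715 and 821 TPM, spanned both. Relative to the family 5 members rose, Rps18, Rpl38, Rpl34, Rpl35a and Rps21, and 3 fell, Rplp1, Rpl13 and Rpl4, beside 1.08% and 6.32% of all genes.

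The summed share of the family shows the same order without passing a test. It averaged 14.6% ± 3.04 (SD, n = 3) at week 2, 12.4% ± 0.461 (n = 4) at week 3 and 13.5% ± 0.672 (n = 4) at week 4. The difference of 1.10 percentage points between weeks 3 and 4 had an exact two-sided permutation p of 0.0571, where 0.0286 is the smallest possible, and 0.4 after adjustment over the 8 comparisons. Rescaled over genes that are neither ribosomal nor mitochondrial it was 2.32 points, with an exact p of 0.0286. Against week 2 the exact p was 0.286 for week 3 and 0.571 for week 4.

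The calls in CD8 T cells from week 2 to week 4 were all falls. 8 members fell and none rose, or 10.5% and 0% of the 76, beside 7.18% and 10.3% of all 13350 tested genes, and the median log2 change was -0.14 against -0.01. Lower were Rps27, Rps29, Rps19, Rps24, Rpl8, Rpl12 and the stalk pair Rplp1 and Rplp2. In 30 members (39.5%) all week 4 libraries lay below all week 2 libraries, beside 16.5% of all genes, and 19 of those were of the small subunit. Small subunit members had a median of -0.23 and large ones of -0.11.

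Rps27, a zinc-binding protein of the small subunit, stood at 4554, 3102 and 3481 TPM at week 2, at 2547, 2978 and 3501 at week 3 and at 2115, 2262 and 2514 at week 4. The week 4 libraries lay below all others, and weeks 2 and 3 overlapped. Its fall of 0.68 (SE 0.17, limma adjusted p = 0.0252) was the largest of the family, and relative to the family it fell by 0.47 (adjusted p = 0.0404), the one member to do so, beside 1.19% of all genes. Read sharing makes its values uncertain, with 98.4% of its 100-base windows found again in another gene.

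Rps29, also zinc-binding, stood at 6359, 4806 and 5365 TPM at week 2, at 3989, 4789 and 5645 at week 3 and at 3762, 3632 and 3993 at week 4, with week 4 wholly below week 2 and overlapping week 3. It fell by 0.53 from week 2 to week 4 (SE 0.15, limma adjusted p = 0.0406). Rpl8 stood at 4992, 4767 and 5112 TPM at week 2, at 4423, 4133 and 4364 at week 3 and at 3413, 3553 and 3893 at week 4, each week wholly below the one before. It fell by 0.46 (SE 0.09, adjusted p = 0.0137), the smallest adjusted p of the family in this comparison. Rps19, whose loss causes Diamond-Blackfan anemia in people, fell by 0.46 (adjusted p = 0.0301).

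Rplp1 stood at 7889, 7493 and 8835 TPM in CD8 T cells at week 2, at 6616, 6384 and 7412 at week 3 and at 5517, 5803 and 6613 at week 4. Week 4 lay wholly below week 2, and it fell by 0.43 (SE 0.12, limma adjusted p = 0.0352), its partner Rplp2 by 0.42 (adjusted p = 0.0337). Rplp0, which anchors both to the ribosome, had a log2 change of -0.07 (adjusted p = 0.582). Without CD8 week 2 replicate 1 or week 4 replicate 3, no member passed, and without other single libraries 1 to 8 did.

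Between weeks 2 and 3 no member was called in CD8 T cells, beside 0.0449% of all genes called higher and 0% lower. At an unadjusted p under 0.05 there were 3 members, 74 of the 76 changes were below 0, and the median was -0.15 against 0.10 for all genes. Relative to the family none was called, beside 0.0599% of all genes higher, and in 7 members all week 3 libraries lay below all week 2 libraries, beside 5.21% of all genes. Between weeks 3 and 4 none was called either, beside 1.38% higher and 1.29% lower, 2 had an unadjusted p under 0.05, and the median was 0.01 against -0.13. Week 4 lay wholly above week 3 in 2 members and wholly below in 5, beside 10.4% and 22.4% of all genes. The summed share was 24.0% ± 2.20, 21.5% ± 1.45 and 21.3% ± 0.785 (SD, n = 3 each) at weeks 2, 3 and 4. The difference of -2.71 points between weeks 2 and 4 had an exact permutation p of 0.2, where 3 against 3 cannot go below 0.1.

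Rplp1 fell in both cell types between weeks 2 and 4, and Rpl8 rose in tumor cells and fell in CD8 T cells. No other member was called in both. Of the 13 members called in tumor cells and the 8 called in CD8 T cells, 2 were shared.

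The knockdown tumor set gave the most calls. In tumor cells labelled shMogat1, 50 members were lower and 2 higher than under shCTRL, or 65.8% and 2.63% of the 76, beside 19.9% and 34.6% of all 12936 tested genes. The falls took in 29 of 46 large and 21 of 30 small subunit members, and 74 of 76 changes were below 0. They were small: the median was -0.09 log2 units against 0.08 for all genes, and replicates were tight. Much of the count depends on scaling, since after quantile normalization 19 members fell and 8 rose, with a median of -0.01. With median-of-ratios scaling 72 fell and none rose, and the median was -0.18, beside -0.01 for all genes. Leaving out 1 library left 41 to 55 falls.

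Rpl13 and Rpl37, both of the large subunit, fell far more than most members. Rpl13 stood at 3075, 3057 and 3148 TPM under shCTRL and at 2228, 2190 and 2202 under shMogat1, a fall of 0.49 (SE 0.02, limma adjusted p = 2.44e-07). Rpl37, a zinc-binding protein, stood at 1007, 966 and 994 TPM under shCTRL and at 717, 724 and 710 under shMogat1, a fall of 0.46 (SE 0.02, adjusted p = 7.15e-07). In neither did the groups overlap, and the spread within a group was a small part of the gap. Both were lower under every alternative scaling, filter and left-out library tried, with log2 changes of -0.58 to -0.44 for Rpl13 and -0.55 to -0.42 for Rpl37.

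Next in order after Rpl37 were Rpl22, at -0.26 (adjusted p = 1.61e-05), and Rps23, a protein of the decoding site, at -0.24 (adjusted p = 1.85e-05). Relative to the family 18 members fell and 4 rose, beside 14.8% and 46.5% of all genes, among the falls Rpl13 (-0.42) and Rpl37 (-0.40). Rpl5 fell by 0.16 and Rpl11 by 0.13 in the first fit. Rplp0, Rplp2, Rpsa, Rpl38, Rps19, Rps27 and Rps29 were not called, with log2 changes between -0.06 and -0.01.

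The rises were Rpl28 (0.09, limma adjusted p = 0.0192) and Rpl29 (0.17, adjusted p = 0.0372). With median-of-ratios scaling Rpl28 had a log2 change of 0.00. Rpl29 stood at 14.4, 16.3 and 14.7 TPM under shCTRL and at 17.9, 17.0 and 16.6 under shMogat1, and 4 of the 6 left-out libraries ended its call. In CD8 T cells of the same set neither Rpl13 nor Rpl37 was called, with log2 changes of -0.01 (adjusted p = 0.887) and -0.10 (adjusted p = 0.122). Whether the cell types differ in these genes was not tested, since the tables were scaled separately.

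These falls came with large differences in cell identity between the arms. Of 12 epithelial and 16 leukocyte markers, 11 and 10 passed the filter on low values. All of these rose in tumor cells labelled shMogat1, beside 34.6% of all genes. A gene nearly absent under shCTRL, such as Epcam, could pass that filter only through the shMogat1 libraries. These counts are therefore partly set by the filter. Summed over the whole lists, with no filter, epithelial markers averaged 209 TPM under shCTRL and 981 under shMogat1, and leukocyte markers 189 and 376. The summed fibroblast markers were 5108 to 5149 TPM under shCTRL and 2832 to 2919 under shMogat1. Taken singly, 4 of the 8 fibroblast markers rose and 3 fell, with a median log2 change of 0.13, so the sum does not speak for the list. The part of cell content in the ribosomal protein results was not tested. The summed share of the family was 12.6%, 12.5% and 12.5% under shCTRL and 11.8%, 11.6% and 11.7% under shMogat1, a difference of -0.881 percentage points that 3 against 3 cannot take below the exact p of 0.1 it had.

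Rises outnumbered falls in CD8 T cells from tumors labelled shMogat1. 19 members rose and 2 fell, or 25% and 2.63% of the 76, beside 16.6% and 26.2% of all 13742 tested genes. 8 of the rises were of the large and 11 of the small subunit, and the median was 0.05 against -0.05 for all genes. Among the rises were Rplp1, Rplp0, Rpsa, Rps6, Rps4x, Rps9, Rpl10 and Rpl15; Rpl34 and Rps18 fell. After quantile normalization 14 rose and 11 fell, with a median of 0.01. Without shCTRL replicate 1, 42 members rose and 4 fell, and without shMogat1 replicate 1, 2 or 3 the rises numbered 9, 8 and 11. The shares of all genes in those refits are not given here.

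Rplp1 led the rises. It stood at 4610, 5227 and 5411 TPM under shCTRL and at 6321, 6210 and 6083 under shMogat1. The groups did not overlap, and shCTRL replicate 1 was lowest. It rose by 0.29 (SE 0.06, limma adjusted p = 0.00547) and relative to the family by 0.24 (adjusted p = 0.0433), and no left-out library ended the call. Rps6, the mTORC1 pathway's best known phosphorylation target on the ribosome, stood at 2438, 2418 and 2532 TPM under shCTRL and at 2823, 2793 and 2747 under shMogat1. It rose by 0.18 (SE 0.03, adjusted p = 0.00262) and Rpl15 by 0.19 (adjusted p = 0.0134).

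Rpl34 fell in these CD8 T cells, from 240, 213 and 208 TPM under shCTRL to 163, 191 and 172 under shMogat1. It fell by 0.33 (SE 0.07, limma adjusted p = 0.0081). Rps18 stood at 1502, 1537 and 1488 TPM under shCTRL and at 1296, 1340 and 1313 under shMogat1 and fell by 0.20 (SE 0.03, adjusted p = 0.00117). Neither gene's groups overlapped, and both calls held when any 1 library was left out.

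Relative to the family 15 members fell and 2 rose, beside 27.4% and 8.4% of all genes. Rpl39, which lines the exit tunnel of the large subunit, fell by 0.24 in that fit (adjusted p = 0.00251) and had -0.18 in the first (adjusted p = 0.0524). Epithelial markers summed to 95.0 to 102 TPM under shCTRL and 240 to 243 under shMogat1, and fibroblast markers to 1893 to 1935 and 906 to 959, while T cell identity genes stood at 4410 to 4630 over both arms. The part of these in the results was not tested. The summed share differed by 0.695 points (exact permutation p = 0.4).

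Of the 50 members that fell in knockdown tumor cells and the 19 that rose in knockdown CD8 T cells, 12 were shared: 24.0% of the first and 63.2% of the second, close to the 25% and 65.8% of all 76 that were called so. Among them were Rpl10, Rpl15, Rpl17, Rpl35, Rplp1, Rps10, Rps15, Rps21, Rps4x, Rps6 and Rps9, of which Rplp1, Rps6 and Rps4x had tumor log2 changes of 0.02, 0.03 and 0.00 after quantile normalization. Rpl34 and Rps18 fell in both cell types. Rpl29 was called higher in both, but 4 of the 6 left-out libraries ended its call in tumor cells and 5 of 6 in CD8 T cells, where its log2 change was 0.18 (adjusted p = 0.0389).

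Calls were found among members with much and with little read sharing. Of the 29 members with under 30% of their 100-base windows found in another gene, 22 fell in knockdown tumor cells. Of the other 47, 28 fell, beside 19.9% of all genes. In knockdown CD8 T cells 6 of the 29 and 13 of the 47 rose, beside 16.6% of all genes. In CD8 T cells from week 2 to week 4, 4 of each fell, beside 7.18% of all genes. Of the 9 rises between tumor weeks 3 and 4, 8 were among the 47, which make up most of the 76 members. Of all genes 5.53% rose there. The part of read sharing in the calls was not tested.

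The order of levels within the family was much alike in both cell types. Over the 76 genes the Spearman correlation of mean levels between pairs of tables was 0.85 to 0.95, a description over genes that share libraries. To compare single members across cell types, each level was taken relative to the median member of its own library, as log2. By that measure 10 members were higher in every CD8 T cell library than in every tumor library, in both the time course and the knockdown set. In both sets 12 were lower, and 1, Rpl37a, went opposite ways, at -0.35 in the time course and 0.16 in the knockdown set. The same count was not made over all genes, so these numbers are not read as particular to the family.

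**Figure D5:**
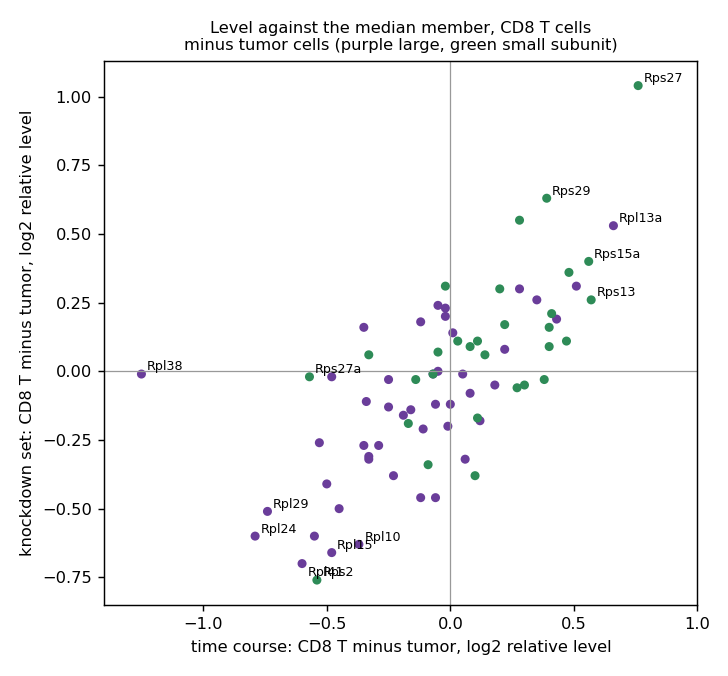
Level of each ribosomal protein gene relative to the median member, log2, CD8 T cells minus tumor cells, in the time course (x axis) and the knockdown set (y axis); each point is 1 gene. Rps27 is at 0.76 and 1.04 on the upper right, Rpl41 and Rpl29 lie on the lower left, and Rpl38 stands apart at -1.25 and -0.01.

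Rps27 was the member most tilted to CD8 T cells, by 0.76 log2 units over time and 1.04 in the knockdown set. As 98.4% of its 100-base windows are found again in another gene, its values are uncertain, and the part of read sharing was not tested. Its mean level was 1046 TPM in tumor cells and 3006 in CD8 T cells over time, and 1425 and 5725 in the knockdown set. Rpl13a (0.66 and 0.53), Rps15a (0.56 and 0.40), Rps13 (0.57 and 0.26) and Rpl12 (0.51 and 0.31) were higher too. The members lower in CD8 T cells included Rpl24 (-0.79 and -0.60), Rpl29 (-0.74 and -0.51) and Rpl41 (-0.60 and -0.70). Rpl38 was lower in CD8 T cells only in the time course, by 1.25, and differed by 0.01 in the knockdown set. Its mean was 1898 TPM in tumor cells and 1297 in CD8 T cells over time, and 846 and 1636 in the knockdown set.

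Other genes of the translation machinery show which results went beyond the family. Ribosomal proteins outside the name rule include Fau, which is made as a fusion with a ubiquitin-like protein, Rps3a1 and Rack1. In knockdown tumor cells Rps3a1 fell by 0.13 (limma adjusted p = 0.00131), Rack1 fell by 0.07 (adjusted p = 0.0132, but 0.06 after quantile normalization), and Fau rose by 0.29 (adjusted p = 2.88e-05). None of these was called in the other comparisons. Of 7 paralogs 4 were expressed above the filter. Rps27l, the paralog of Rps27 that p53 induces, fell in tumor cells from week 2 to week 4 by 0.73 (194.5 ± 26.8 to 116.6 ± 9.47 TPM, SD, n = 3 and 4, adjusted p = 0.000274) and fell under shMogat1 by 0.21 in tumor cells (adjusted p = 0.0234) and by 0.47 in CD8 T cells (adjusted p = 0.00189).

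Among translation factors and other genes whose mRNAs also carry a TOP tract, 12 of 17 fell and 2 rose in knockdown tumor cells, with a median of -0.12, beside 19.9% and 34.6% of all genes. The elongation factor Eef1a1, the most abundant of them, went from 13210 ± 135 to 11770 ± 101 TPM (SD, n = 3; -0.17, limma adjusted p = 4.56e-05). Eef2 fell by 0.28 (adjusted p = 9.7e-06), Npm1, a nucleolar chaperone, by 0.31 (adjusted p = 4.9e-06) and Tpt1 by 0.19 (adjusted p = 4.38e-05), while Eef1g rose by 0.32 (adjusted p = 3.2e-06). In CD8 T cells of that set 2 of 17 rose and none fell, beside 16.6% and 26.2% of all genes. The rises were Tpt1, by 0.16 (adjusted p = 0.0105, but 0.00 after quantile normalization, and the call ended without shMogat1 replicate 2 or 3), and Pabpc1, by 0.14 (adjusted p = 0.0037). In the time course 4 of 17 fell and 1 rose in tumor cells from week 2 to week 4, beside 17.1% and 29.2% of all genes. Eef1a1 went from 10690 ± 786 (n = 3) to 7931 ± 321 TPM (n = 4, log2 change -0.43, adjusted p = 0.00989, but -0.08 and not past the threshold after quantile normalization). In CD8 T cells 1 fell and 2 rose over these weeks, beside 7.18% and 10.3% of all genes.

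The 8 host RNAs of small nucleolar RNAs looked at here encode no ribosomal protein, though such RNAs can carry TOP tracts. In knockdown tumor cells 6 of 8 rose and none fell, with a median of 0.19, beside 34.6% and 19.9% of all genes and their median of 0.08. Snhg1 rose by 0.42, from 307 ± 12.6 to 413 ± 16 TPM (SD, n = 3; limma adjusted p = 3.75e-05), and Gas5 by 0.15 (adjusted p = 0.000402). In knockdown CD8 T cells 2 rose and 2 fell, beside 16.6% and 26.2% of all genes, and among the falls was Zfas1, by 0.28 (adjusted p = 0.00225). Mitochondrial ribosomal proteins, which form a separate ribosome, were measured in the same tables. In knockdown tumor cells 19 of 77 rose and 3 fell, beside 34.6% and 19.9% of all genes, and in knockdown CD8 T cells 1 rose and 26 fell, beside 16.6% and 26.2%. From week 2 to week 4 in tumor cells 11 rose and 14 fell, beside 29.2% and 17.1%.

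Genes that build ribosomes were looked at next. In tumor cells from week 2 to week 4, 10 of 33 assembly factors rose and 1 fell, and 7 of 12 RNA polymerase I genes, which serve transcription of ribosomal RNA, rose and none fell, beside the 29.2% and 17.1% of all genes. Polr1b rose by 1.21, from 12.7 ± 3.34 to 30.1 ± 3.00 TPM (SD, n = 3 and 4; limma adjusted p = 0.000239). Rrp1b rose by 0.98 (adjusted p = 0.00011) and Pes1 by 0.58 (adjusted p = 0.000875). In CD8 T cells over the same weeks 3 of 12 polymerase I genes fell and none rose, beside 7.18% and 10.3% of all genes. In knockdown tumor cells 9 of 33 assembly factors fell and 3 rose, beside 19.9% and 34.6% of all genes. In knockdown CD8 T cells 7 rose and none fell, beside 16.6% and 26.2%, and Nop56 rose by 0.25 (adjusted p = 0.000639).

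The regulators of ribosome synthesis gave mixed results. Of 23 Myc and mTORC1 pathway genes, 8 rose and 3 fell in tumor cells from week 2 to week 4, beside 29.2% and 17.1% of all genes. Among the rises were Larp1 (0.94, limma adjusted p = 0.00289) and the mTORC1 subunit Rptor (1.24, adjusted p = 0.000585). Myc itself had 212.8 ± 87.5 TPM (SD, n = 3) at week 2 and 232.0 ± 25.1 (n = 4) at week 4 (adjusted p = 0.469), and its highest level, 311 TPM, was in tumor week 2 replicate 1, the library with the lowest ribosomal protein share. In knockdown tumor cells Myc had a log2 change of -0.06 (adjusted p = 0.203). In knockdown CD8 T cells, where 19 members rose, Myc fell from 179.9 ± 9.27 to 133.1 ± 7.11 TPM (n = 3 each; -0.43, adjusted p = 0.000427), and Larp1 rose by 0.12 (adjusted p = 0.0147).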

How the data were processed

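The values are TPM as the authors deposited them in 4 tables, 1 per cell type and set, with 32 libraries in all. Libraries were made from 1 ug of total RNA, extracted with TRIZOL, with a stranded mRNA kit, per the labels' protocols. Per the submitters' processing notes, HISAT2, Trim Galore and FastQC were used, and mm10 is the build named; versions, the read counter, the annotation and the gene lengths are not given in the sources used here. Of the 33681 entries per table, 27 carry dates where symbols belong and were not used (at most 0.184% of TPM).

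Tests covered genes that reached 1 TPM in 3 or more libraries of the table, and ran on log2(TPM + 1), pseudocount 1, with limma 3.58.1 in R 4.3.3 (lmFit, eBayes with trend), fitting all groups of a table together, with Benjamini-Hochberg adjustment at a threshold of 0.05. Fold changes are on the log2(TPM + 1) scale. The script was tested on simulated data. Summed shares were compared by exact two-sided permutation tests over libraries. The relative fit centres each library on its median member. Depth, estimated from the smallest steps of TPM values with GENCODE M21 exon lengths, was 30.2 to 54.1 megareads per library and rests on those lengths.

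Members, gene lists, comparisons and alternatives were chosen with earlier results of these data known. The text names, per comparison, up to 5 called members with the largest rise and fall and up to 3 in each direction of the relative fit, the 3 highest and lowest members of a table, 16 members of known role, list genes and the 5 genes most like the median member; other members named are those of short counts. Some genes that the rule names are not reported here. Python 3.11.15, pandas 2.3.3, numpy 2.4.6, scipy 1.17.1 and matplotlib 3.10.9 served for sequences and plots. Alternatives were another pseudocount (0.1), no filter, 3 rescalings, each library left out, a replicate block and fits of only 2 weeks.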

Additional observations from a re-analysis of the deposited data

Results flagged for a closer look

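Among the members and groups of 4 libraries checked for a library far from the others (64 in all, of which chance gives about 1 in 20), 2 were found, both in tumor week 3 replicate 1: Rpl3, which lies at the peptidyl transferase centre, at 1093 TPM against 1034 in the nearest library, and Rps19 at 1085 against 1018.

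In 7 cases given here a named member moved in opposite directions in the 2 cell types with no overlap between groups in either. Over all 76 members such opposite moves numbered 19 in the knockdown set (25%, beside 17.2% of genes tested in both tables), 1 from week 2 to week 4 (1.32%, beside 8.7%) and 4 from week 3 to week 4 (5.26%, beside 5.38%). The difference between cell types was not tested, because the tables were scaled separately. Under shMogat1 the log2 changes in tumor cells and CD8 T cells were -0.09 and 0.12 for Rpl10, which joins the large subunit last, -0.10 and 0.19 for Rpl15, -0.10 and 0.29 for Rplp1, -0.10 and 0.13 for Rps4x, the copy on the X chromosome, and -0.072 and 0.18 for Rps6. After quantile normalization the tumor changes of Rplp1, Rps4x and Rps6 were above 0. From week 2 to week 4 Rpl8 had 0.31 in tumor cells and -0.46 in CD8 T cells. From week 3 to week 4 Rps27 had 0.44 in tumor cells and -0.38 in CD8 T cells, the latter with a limma adjusted p of 0.2.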

How the results depend on the processing

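Over the settings that leave out no library, 1127 of 1322 gene and setting pairs stayed on their side of the threshold, 163 were no longer past it, 23 were newly past it, and 9 reached or crossed 0 with a call before or after. Counting uncalled values too, 39 changed sign. Of the named calls, 9 of 20 in tumor weeks 2 to 4, 0 of 5 in weeks 2 to 3, 0 of 9 in weeks 3 to 4, 0 of 9 in CD8 weeks 2 to 4, 23 of 28 in knockdown tumor cells and 13 of 19 in knockdown CD8 T cells held when any 1 library was left out. The planned addition of pseudogene rows to their parent genes was not run, since no such rows were matched. Where a value below differs from the report's, the cause was not tested unless the setting itself uses fewer libraries or tests more genes. Depth limits Rpl29 most, with an estimated 178 to 454 reads per library.

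With median-of-ratios scaling the median of all genes went from 0.11 to -0.01 for tumor weeks 2 to 4 and from 0.14 to -0.01 for weeks 2 to 3. The members' medians were 0.10 in knockdown CD8 T cells, 0.14 in CD8 T cells from week 3 to 4 and -0.18 in knockdown tumor cells, and their shared movement in that table was 9.14%. Members higher numbered 0 in knockdown tumor cells, 0 in tumor weeks 2 to 4 and 4 in weeks 3 to 4, and members lower 1 in CD8 weeks 2 to 4, 10 in tumor weeks 2 to 3 and 14 in weeks 2 to 4. Rpl28 in knockdown tumor cells was at 0.00.

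After quantile normalization the median in knockdown tumor cells was -0.011, members higher were 8 there, 1 in tumor weeks 2 to 3 and 11 in weeks 2 to 4, and members lower 19 in knockdown tumor cells and 11 in knockdown CD8 T cells. Away from the family stood 3 in CD8 weeks 2 to 4. Shared movement was 9.28% in CD8 T cells over time, 12.7% in knockdown CD8 T cells and 0.188% in knockdown tumor cells. In knockdown tumor cells 7 log2 changes that were past the threshold before or after turned positive: Rplp1 0.015, Rpsa 0.060, Rps6 0.027, Rpl3 0.062, Rps4x 0.003, Rps29 0.102 and Rack1 0.064. Others past it in neither, such as Rps27 (0.035) and Rplp2 (0.029), did too; Rps27 in knockdown CD8 T cells was at -0.004.

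With no filter, which tests more genes, members away from the family were 6 in knockdown CD8 T cells, 0 in CD8 weeks 2 to 4 and, in tumor weeks 2 to 3, 2 to 4 and 3 to 4, 0, 6 and 1. Members higher were 7 in knockdown CD8 T cells, 0 in knockdown tumor cells, 0 in tumor weeks 2 to 4 and 3 in weeks 3 to 4, and members lower 0 in CD8 weeks 2 to 4, 1 in tumor weeks 2 to 3 and 2 in weeks 2 to 4. With only the 2 weeks compared in the fit, members away were 0, 6 and 26 in tumor weeks 2 to 3, 2 to 4 and 3 to 4, members higher 0 in weeks 2 to 4 and 26 in weeks 3 to 4, and members lower 5 in CD8 weeks 2 to 4 and 0 and 2 in tumor weeks 2 to 3 and 2 to 4. With a pseudocount of 0.1, 2 members stood away in tumor weeks 2 to 3. Rescaled over genes neither mitochondrial nor ribosomal, 2 rose and 2 fell in tumor weeks 2 to 4, 2 fell in CD8 weeks 2 to 4, and the summed share differed by 2.32 points between tumor weeks 3 and 4.

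The labels do not say whether replicate numbers pair the samples. Deviations of same-numbered libraries from their group means correlated between -0.263 and 0.233 in tumor cells over time, -0.241 and 0.426 in CD8 T cells over time, -0.036 and 0.023 in knockdown tumor cells and 0.033 and 0.046 in knockdown CD8 T cells. These cannot decide about pairing, since such pairs are few and deviations within a group depend on each other. With a replicate block, members away were 6 in knockdown CD8 T cells, 0 in CD8 weeks 2 to 4 and 0, 7 and 1 in tumor weeks 2 to 3, 2 to 4 and 3 to 4; members higher 2 in knockdown CD8 T cells, 1 in knockdown tumor cells, 0 in tumor weeks 2 to 4 and 1 in weeks 3 to 4; members lower 4 in knockdown CD8 T cells, 3 in CD8 weeks 2 to 4 and 0 and 2 in tumor weeks 2 to 3 and 2 to 4.

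Leaving out each library gave these ranges. Members lower were 2 to 43 in tumor weeks 2 to 4, 0 to 62 in weeks 2 to 3, 0 to 8 in CD8 weeks 2 to 4, 41 to 55 in knockdown tumor cells and 2 to 4 in knockdown CD8 T cells; members higher were 0 to 9 in tumor weeks 2 to 4, 0 to 4 in weeks 3 to 4, 0 to 2 in knockdown tumor cells and 8 to 42 in knockdown CD8 T cells. Members away were 9 to 30, 0 to 7 and 0 to 4 in tumor weeks 2 to 4, 2 to 3 and 3 to 4, 0 to 2 in CD8 weeks 2 to 4, 17 to 28 in knockdown tumor cells and 5 to 31 in knockdown CD8 T cells. Medians ran from -0.278 to 0.068, -0.392 to -0.074 and 0.10 to 0.15 in tumor weeks 2 to 4, 2 to 3 and 3 to 4, from -0.21 to -0.08, -0.23 to -0.09 and -0.04 to 0.06 in CD8 T cells, from -0.098 to -0.084 in knockdown tumor cells and from 0.01 to 0.08 in knockdown CD8 T cells. Differences of the summed share ran from -2.78 to 0.0897, -3.87 to -1.01 and 0.844 to 1.35 points in tumor cells, from -3.81 to -1.61, -3.62 to -1.42 and -0.648 to 0.642 in CD8 T cells, and from -0.945 to -0.826 and 0.397 to 1.17 in the knockdown sets. Shared movement, an alternative added after seeing the data, ran from 55.4% to 87.5% in tumor cells over time, 46.9% to 68.9% in CD8 T cells over time, 2.55% to 6.09% in knockdown tumor cells and 6.30% to 39.0% in knockdown CD8 T cells. Without tumor week 2 replicate 1, Rpl39 in tumor weeks 2 to 4 was at -0.22 (adjusted p = 0.0428), against 0.01 with it.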
